A study of Rattus norvegicus with 6 samples.

Results

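The 8 adrenergic receptor genes examined here were Adra1a, Adra1b, Adra1d, Adra2a, Adra2b, Adra2c, Adrb1 and Adrb3, chosen by symbol among the 33294 gene symbols of the count tables and with their difference between the groups already known. RNA was sequenced from the pituitary gland of 11-week-old male Sprague-Dawley rats, 3 from the nicotine group and 3 controls, with 1 library per rat. The mothers of the nicotine group carried an osmotic mini-pump under the skin that delivered 6 mg/kg/day of nicotine tartrate during pregnancy, and the mothers of the controls carried a pump with saline. The sons were therefore exposed before birth and examined as adults. The running time of the pump reached past birth, and the study does not say whether it was removed. Exposure during nursing can therefore not be told apart from exposure before birth. Whether rats of a group were littermates is not given in the sources used here, so the spread between libraries may be smaller than that between litters.

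Adrenergic receptors are the G protein-coupled receptors for noradrenaline and adrenaline. The alpha1 receptors act through Gq and phospholipase C and release calcium inside the cell, the alpha2 receptors act through Gi and Go and lower cyclic AMP, and the beta receptors act through Gs and raise cyclic AMP. In the pituitary, catecholamines reach the hormone cells through the portal blood, while sympathetic nerve fibres run along the vessels and in the capsule of the gland.

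The count tables summed to between 46239801 and 85977002 counts in the nicotine group and between 28318383 and 54309256 counts in the control group. Levels are given as CPM, the counts of a gene in 1000000 counts of its library, after scaling by trimmed mean of M-values (TMM), and gene length was not taken into account, so levels were not compared between genes. The hormone genes marked the tissue as pituitary in both groups, since the summed level of 14 hormone cell markers such as Gh1, Prl and Pomc lay between 119416 and 183233 CPM in the nicotine libraries and between 151557 and 165123 CPM in the controls. The read numbers listed in the study's supplement are larger for the controls, whereas the totals of the count tables are larger for the nicotine libraries, and each total lies a little below the read number listed for a library of the other group. Whether the labels of the tables or of the supplement were exchanged was not resolved. The groups below follow the sample labels, and every direction rests on those labels.

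Of the receptors, Adra2a showed the clearest separation of the groups, with a mean level of 4.52 ± 1.30 CPM (SD, n = 3) in the nicotine libraries and 7.80 ± 1.04 CPM (SD, n = 3) in the controls. The other alpha2 gene with a lower mean after nicotine was Adra2c, and its groups overlapped. The alpha1 genes Adra1a and Adra1d had higher means after nicotine at low counts. The log2 fold changes of Adra1b, Adra2b and Adrb1 were smaller than their standard errors, and Adrb3 was hardly detected.

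**Figure D1:**
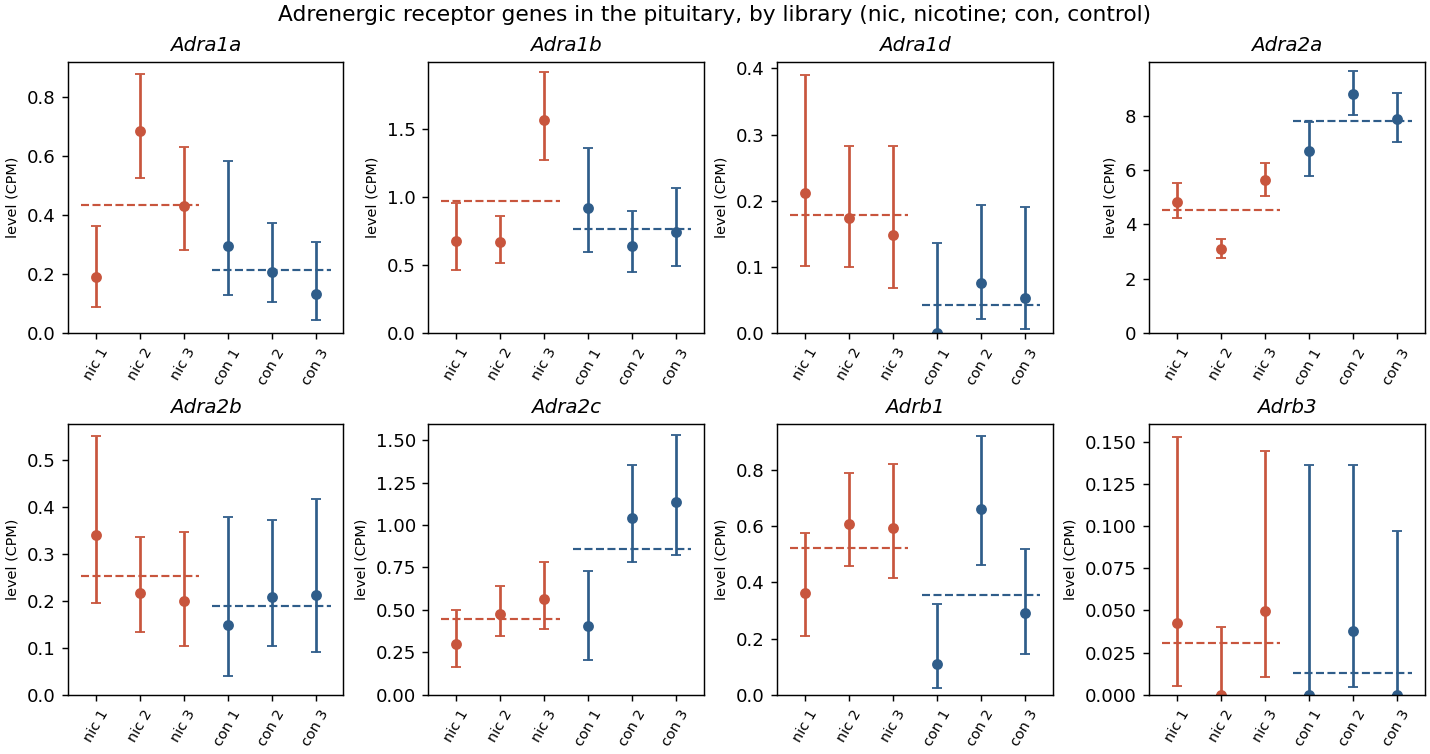
Level in CPM (vertical axes, from 0, each panel with its own scale) of the 8 receptor genes in each library, with 95% exact Poisson intervals as bars and group means as dashed lines. The 3 nicotine libraries lie below the 3 controls for Adra2a, between 3.09 and 5.63 CPM against 6.72 to 8.80 CPM, and above them for Adra1d, at no more than 16 counts a library.

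To see how far counts of this size can carry a difference, the filter on low counts and the counting error were examined first. Adra1a, Adra1b, Adra2a, Adra2b, Adra2c and Adrb1, 6 of the 8 genes, passed the filter and were fitted with edgeR together with all 17292 genes tested. Adra1d and Adrb3 did not pass. A count of the average size carried a counting error of 5.77% for Adra2a, 14.7% for Adra1b, 17.3% for Adra2c, 22.2% for Adra1a, 29.1% for Adra2b and 38.3% for Adra1d. The spread between libraries of a group, as a pooled coefficient of variation, was 19.1% for Adra2a, 43.4% for Adra1b, 45.4% for Adra2c and 56.8% for Adra1a, which was above the counting error. It was 27.2% for Adra2b and 32.2% for Adra1d, which was not. Intervals and detection floors cover counting error only.

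With the thresholds used in the study, an adjusted p below 0.1 and a fold change above 1.5, edgeR's quasi-likelihood test called 0 of the 6 fitted receptor genes, beside 0% of all genes tested. DESeq2 also called 0 of them, beside 0.339% of all genes. At an unadjusted p below 0.05, 2 of the 6 passed in edgeR, Adra2a and Adra2c, beside 6.14% of all genes. Because the genes were chosen with this contrast known, these counts describe the selection and test nothing.

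Adra1a, the Gq-coupled receptor best known from smooth muscle, was measured at 0.191, 0.684 and 0.430 CPM in nicotine replicates 1 to 3 and at 0.295, 0.208 and 0.132 CPM in control replicates 1 to 3. Nicotine replicates 2 and 3 were above every control, and nicotine replicate 1 lay among the controls. On the log2 scale, the fold change of nicotine over control was 1.18 (SE 0.59). It was 0.64 without nicotine replicate 2, the library with 63 of the 98 counts of the nicotine group, and 0.71 with limma voom and sample quality weights.

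Adra1b, a second Gq-coupled receptor, was measured at 0.679, 0.673 and 1.57 CPM in the nicotine libraries and at 0.923, 0.643 and 0.740 CPM in the controls. Nicotine replicate 3 stood above the 5 other libraries, which lay within 0.643 and 0.923 CPM. The fitted log2 fold change was 0.37 (SE 0.43), and it turned to -0.15 when nicotine replicate 3 was left out.

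Adra1d, the third alpha1 receptor, received 10, 16 and 9 counts after nicotine and 0, 4 and 2 counts in the controls. In CPM these were 0.212, 0.174 and 0.149 after nicotine and 0, 0.0757 and 0.0528 in the controls. Every nicotine library was above every control. This held for 6.12% of all genes tested, a set that Adra1d did not enter because of its low counts. The control library with no count had a detection floor of 0.111 CPM (3 counts) and a 95% exact Poisson upper limit of 0.136 CPM. Over the pooled counts, 35 against 6, the nicotine level was 3.44 times the control level, with a 95% exact interval of 1.43 to 10.01 that covers counting error only.

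Adra2a encodes the alpha2A receptor, the inhibitory autoreceptor of noradrenergic neurons and a receptor of many other cell types. Its counts were 228, 285 and 341 after nicotine and 182, 465 and 299 in the controls. These gave 4.84, 3.09 and 5.63 CPM after nicotine and 6.72, 8.80 and 7.90 CPM in the controls. The groups did not overlap, with every nicotine library below every control, as for 5.14% of all genes tested, and the 95% Poisson intervals of the nearest libraries, 5.05 to 6.27 CPM for nicotine replicate 3 and 5.78 to 7.77 CPM for control replicate 1, overlapped. The log2 fold change was -0.80 (SE 0.26), and it ranged from -0.997 without nicotine replicate 3 to -0.59 without nicotine replicate 2. In bulk tissue, fewer cells that hold a transcript and less transcript per cell cannot be told apart.

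Adra2b, the alpha2B receptor, was measured at 0.339, 0.217 and 0.198 CPM after nicotine and at 0.148, 0.208 and 0.211 CPM in the controls. The groups overlapped, and the 95% Poisson interval of nicotine replicate 1, 0.194 to 0.551 CPM, held 2 of the 3 control values. With a log2 fold change of 0.32 (SE 0.53), no difference was detectable at this depth.

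Adra2c, the alpha2C receptor, which works beside alpha2A as a brake on noradrenaline and adrenaline release, was measured at 0.297, 0.478 and 0.562 CPM after nicotine and at 0.406, 1.04 and 1.14 CPM in the controls. Control replicates 2 and 3 were above every nicotine library, and control replicate 1, the shallowest library with 11 counts of this gene, lay among the nicotine libraries. The group means were 0.445 ± 0.135 and 0.861 ± 0.397 CPM (SD, n = 3 each). The log2 fold change was -0.98 (SE 0.43), and it ranged from -1.25 without control replicate 1 to -0.78 without control replicate 3.

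Adrb1, the beta1 receptor, known above all from the heart, was measured at 0.361, 0.608 and 0.595 CPM after nicotine and at 0.111, 0.662 and 0.291 CPM in the controls. The highest and the lowest level were both controls, so the groups overlapped fully. The log2 fold change was 0.42 (SE 0.52), and it ranged from 0.11 without control replicate 1 to 1.32 without control replicate 2.

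Adrb3, the beta3 receptor of fat cells, received 2, 0 and 3 counts after nicotine and 0, 2 and 0 in the controls. All 6 libraries were at or below 3 counts, so no fold is given. The detection floor of 3 counts was 0.0326 CPM in the deepest library and 0.111 CPM in the shallowest. The 95% exact Poisson upper limits of their counts of 0 were 0.0400 and 0.136 CPM. Of 6 fat cell markers, Adipoq, Fabp4 and Ucp1 were tested, with Adipoq at 9.49 CPM after nicotine and 11.6 CPM in the controls, and Plin1, Cidec and Lep were too low to be tested.

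**Figure D2:**
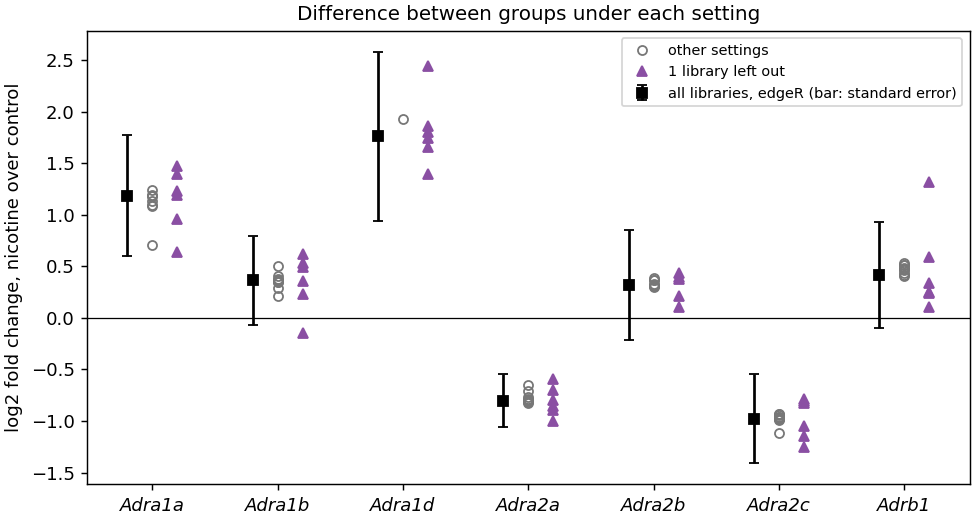
Log2 fold change of nicotine over control (vertical axis) for 7 receptor genes with all libraries (squares, with the standard error), under the other settings (open circles) and with 1 library left out (triangles), where the square of Adra1d comes from the fit with no filter. Adra2a and Adra2c stay below 0 throughout, and Adra1b crosses 0 without nicotine replicate 3.

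The plot of log2 fold changes under each setting shows how much the low-count genes lean on single libraries. The value of Adra2a stayed between -0.83 and -0.66 under the settings that kept all libraries. The value of Adrb1 moved most, since control replicate 1 held 3 of its counts and control replicate 2 held 35.

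Next, the receptor counts of each library were summed, and the part held by each coupling class was compared. These are shares of counts, to which gene length also contributes, so a class is set only against itself in other libraries. The alpha2 genes held 78.7%, 63.9% and 69.6% of the receptor counts after nicotine and 84.5%, 86.1% and 88.4% in the controls. The groups did not overlap, and the means were 70.7 ± 7.43% and 86.3 ± 1.93% (SD, n = 3 each).

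The alpha1 genes held 15.5%, 25.8% and 23.4% after nicotine and 14.2%, 7.94% and 8.84% in the controls. The groups did not overlap here either, but nicotine replicate 1 and control replicate 1 were close, with exact binomial 95% intervals of 11.8 to 19.9% and 9.95 to 19.3%. In CPM the alpha1 sums overlapped, at 1.08, 1.53 and 2.15 after nicotine and 1.22, 0.927 and 0.925 in the controls. The alpha1 share also depends on the alpha2 counts, most of which came from Adra2a (1800 counts, beside 201 for Adra2c and 71 for Adra2b). The beta genes held 5.79%, 10.3% and 7.01% after nicotine and 1.29%, 6.00% and 2.78% in the controls, and these groups overlapped. The summed level of all 8 genes was 7.36 ± 1.67 CPM after nicotine and 10.2 ± 1.54 CPM in the controls (SD, n = 3 each). The shares follow from the same counts as the gene by gene values and are no separate evidence.

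**Figure D3:**
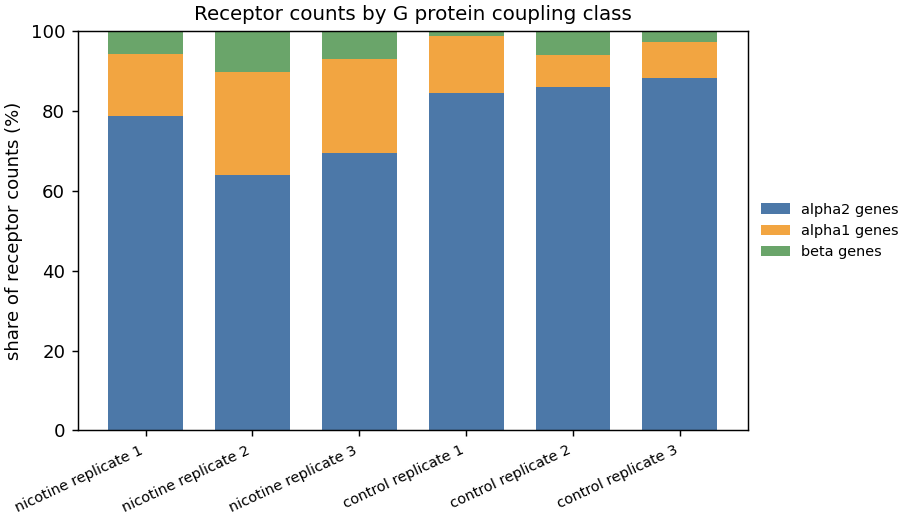
Share of all receptor counts (vertical axis, percent) held by the alpha2, alpha1 and beta genes in each library, as stacked bars. The alpha2 share is 63.9 to 78.7% after nicotine and 84.5 to 88.4% in the controls.

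A dissected gland can include capsule, vessels and posterior lobe, and the receptor genes were set beside markers of the cell types a sample could hold. The 7 fibroblast matrix genes Col1a1, Col1a2, Col3a1, Dcn, Lum, Pdgfra and Pdgfrl were all lower after nicotine, with log2 fold changes of -0.86 to -0.51, unadjusted p-values of 0.00488 to 0.0411 and adjusted p-values of 0.760 to 0.806 (edgeR). Their summed level was 425, 288 and 503 CPM after nicotine and 581, 788 and 653 CPM in the controls, so these groups did not overlap. Dcn, which encodes the small proteoglycan decorin, made up 50.4% of the sum.

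Adra2a followed this sum from library to library. The 6 libraries had the same order by Adra2a and by the fibroblast matrix sum, from nicotine replicate 2 at the bottom to control replicate 2 at the top. Adra2a stood at 11.4, 10.7 and 11.2 CPM per 1000 CPM of the fibroblast matrix genes in the nicotine libraries and at 11.6, 11.2 and 12.1 in the controls. The group means of this ratio were 11.1 ± 0.34 and 11.6 ± 0.47 (SD, n = 3 each), and the groups overlapped. The highest library was 2.84 times the lowest for Adra2a itself and 1.13 times the lowest for the ratio.

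The log2 difference between the groups was -0.06 for the ratio, and it lay between -0.09 and -0.03 when any 1 library was left out. With the mean log2 level of the 7 genes in place of their sum, it was -0.09. It was -0.21 when Dcn was taken out of the list and 0.02 when Col1a2 was. The ratio was computed after the values had been seen, for Slc6a2 and the 7 receptors other than Adrb3 and for 13 marker lists, 104 ratios in all. For Adra2a, the highest library was between 1.99 and 11.4 times the lowest against each of the 12 other lists. The log2 difference between the groups was also small against the macrophage and leukocyte markers, at -0.06 with their sum and -0.09 with their mean log2 level, and against the melanotroph markers, at -0.14 with the sum, with overlapping groups for both. The loss of the group difference was thus not particular to the fibroblast list, and the highest library was 2.66 and 3.83 times the lowest for these ratios. Against the red blood cell markers the difference was 0.28 with the sum and 0.30 with the mean log2 level. Those groups also overlapped, and the highest library was 2.07 times the lowest. Against the meninges markers the difference was -1.14 with the sum, without overlap, and -0.25 with the mean log2 level. Igfbp2 alone supplied a large part of the meninges sum, at a mean of 254 CPM after nicotine and 124 CPM in the controls. Whether the content of any of these cell types has a part in the difference of Adra2a was not tested.

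The other alpha2 gene with a lower mean, Adra2c, stood at 0.699, 1.66 and 1.12 CPM per 1000 CPM of the fibroblast matrix genes after nicotine and at 0.699, 1.32 and 1.74 in the controls. The groups overlapped, the log2 difference of the ratio was -0.11, and the highest library was 2.49 times the lowest. The order of the libraries differed from that of the fibroblast matrix sum, with control replicate 1 low for Adra2c.

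The libraries with the most Adra1a and the most Adra1b were also the highest for several marker lists, which was not the case for Adra1d, highest in nicotine replicate 1. Nicotine replicate 2, with the most Adra1a, was highest for the posterior lobe, the meninges, and the nerve and glia markers. In the meninges sum, a large part came from Igfbp2 alone. Nicotine replicate 3, with the most Adra1b, was highest for the hormone cell, folliculostellate and stem, endothelial, and smooth muscle and pericyte markers. The summed level of 9 posterior lobe markers, among them Rax, Nkx2-1 and Avp, was 165, 349 and 204 CPM after nicotine and 179, 127 and 78.1 CPM in the controls, and 8 of the 9 were higher after nicotine. Nicotine replicate 2, the library with the most Adra1a, also had the most of these markers. Adra1a stood at 1.15, 1.96 and 2.103 CPM per 1000 CPM of the list after nicotine and at 1.65, 1.64 and 1.69 in the controls, so the groups of the ratio overlapped. The log2 difference was 0.07 with the sum of the list and -0.57 with its mean log2 level, and the part of posterior lobe tissue in the difference of Adra1a was not tested.

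For Adra1b, nicotine replicate 3 was the library that stood apart, and the summed level of 14 smooth muscle and pericyte markers was 265 CPM in that library and between 70.7 and 115 CPM in the 5 others. Of these markers, 13 of 14 were higher after nicotine. edgeR called 0 of them, and DESeq2 called 3, Acta2, Mcam and Abcc9, all higher, beside 0.339% of all genes. Adra1b stood at 5.92, 7.75 and 5.92 CPM per 1000 CPM of the list after nicotine and at 11.1, 7.14 and 10.5 in the controls, so nicotine replicate 3 was not high by this measure. Tagln, which encodes transgelin of smooth muscle, supplied 138 CPM of the sum in nicotine replicate 3 and 10.6 to 32.4 CPM in the others. Without Tagln, an omission made after the values were seen, the sum was 127 CPM in nicotine replicate 3, 99.6 CPM in nicotine replicate 1 and at most 76.2 CPM in the others. Adra1b then stood at 6.82, 8.83 and 12.3 CPM per 1000 CPM after nicotine and at 18.1, 9.24 and 13.2 in the controls, with nicotine replicate 3 the highest of its group and below 2 controls. With all markers of the list, the highest library was 1.87 times the lowest for the ratio of Adra1b. Against the folliculostellate and stem, hormone cell and endothelial markers it was 1.93, 2.09 and 2.11 times the lowest. The pattern of Adra1b was thus not particular to the smooth muscle list. The part of vessel wall in the level of Adra1b was not tested.

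**Figure D4:**
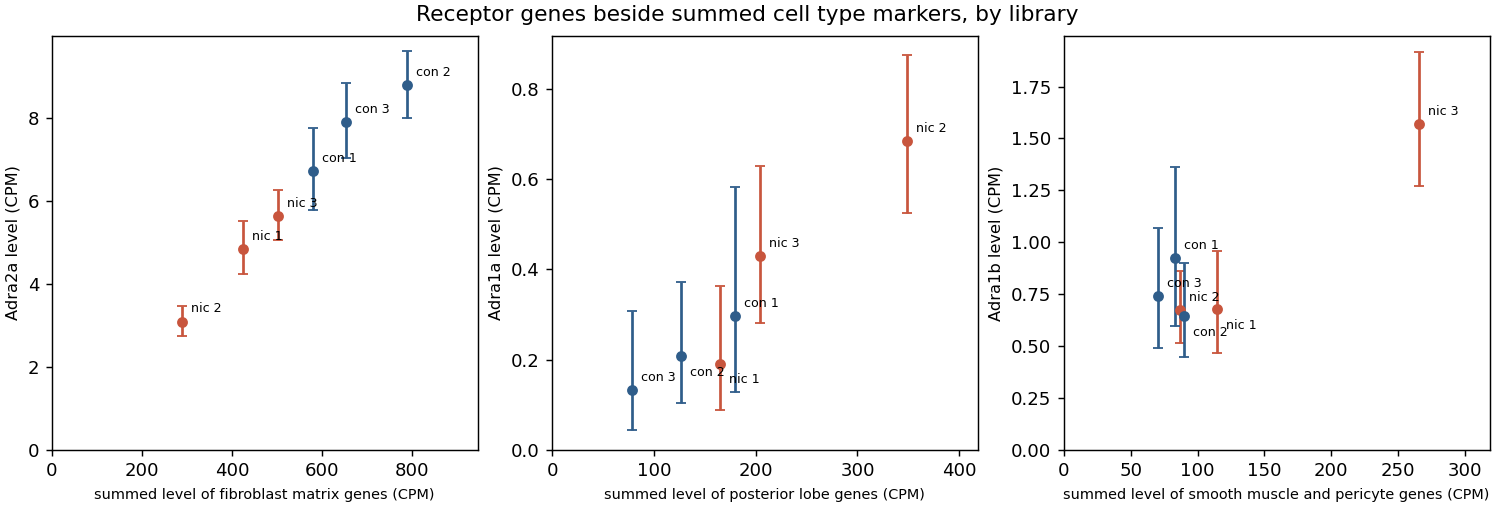
Level in CPM (vertical axes, with 95% exact Poisson intervals) of Adra2a, Adra1a and Adra1b in each library against the summed level in CPM (horizontal axes) of fibroblast matrix, posterior lobe, and smooth muscle and pericyte markers. Adra2a lies close to a line through 0, at 10.7 to 12.1 per 1000, nicotine replicate 2 is highest for Adra1a, and nicotine replicate 3 is highest for Adra1b.

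In other marker lists most genes pointed one way, with overlapping sums, no gene called by edgeR and 2 meninges genes called by DESeq2. The 16 meninges markers had 13 lower and 3 higher after nicotine, while their sums, at 311 to 422 CPM after nicotine and 217 to 334 CPM in the controls, tended the other way. Igfbp2, 1 of the 3 higher, supplied 208 to 342 CPM of these sums after nicotine and 61.5 to 206 CPM in the controls. The direction of the sums thus leans on this 1 gene. All 10 macrophage and leukocyte markers were lower, with sums of 66.8 to 104 CPM and 93.3 to 190 CPM, and so were all 5 red blood cell markers. Of 11 endothelial markers, 10 were higher, with sums of 223 to 359 CPM and 177 to 237 CPM. Of the 14 hormone cell markers, 9 were higher and 5 lower after nicotine. The 4 without overlap, Lhb, Gnrhr, Nr5a1 and Chgb, were all higher, beside 11.3% of all genes tested without overlap. Lhb was at 420 ± 347 CPM after nicotine and 118 ± 39.6 CPM in the controls (SD, n = 3 each), so the similar sums do not show an equal make-up of hormone cells. The pineal marker Crx had no count in any library.

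To name the genes that varied most like Adra2a within the groups, each group's mean was subtracted from the log2 levels. Cgnl1, which encodes a tight junction protein, had the highest correlation over the 6 libraries (r = 0.9996), followed by LOC108351595 (r = 0.9992) and Myoc, the gene of myocilin (r = 0.9990). A correlation above 0.9 was reached by 712 of 17291 genes, or 4.12%, and the points share library, depth and scaling. Between the groups these genes did not differ as Adra2a did, with log2 fold changes of 0.43 for Cgnl1, -0.36 for LOC108351595 and 0.24 for Myoc. Among the 15 pairs of fitted receptor genes, the correlation was highest for Adra2c with Adrb1 (r = 0.84), both low in nicotine replicate 1 and control replicate 1, and lowest for Adra1a with Adra2b (r = -0.86).

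To place the receptors in their pathway, 70 genes of catecholamine handling, G protein signalling and receptor desensitization were examined, of which 66 were tested. edgeR called 0 of them, 6 had an unadjusted p below 0.05 (4 higher and 2 lower after nicotine), and DESeq2 called 1, the noradrenaline transporter gene Slc6a2. The groups did not overlap for 10 of the 66 genes, beside 11.3% of all genes. The median log2 fold change of the 66 genes was 0.04, with 40 higher and 26 lower, beside a median of 0.0070 with 8824 higher and 8468 lower over all genes tested.

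**Figure D5:**
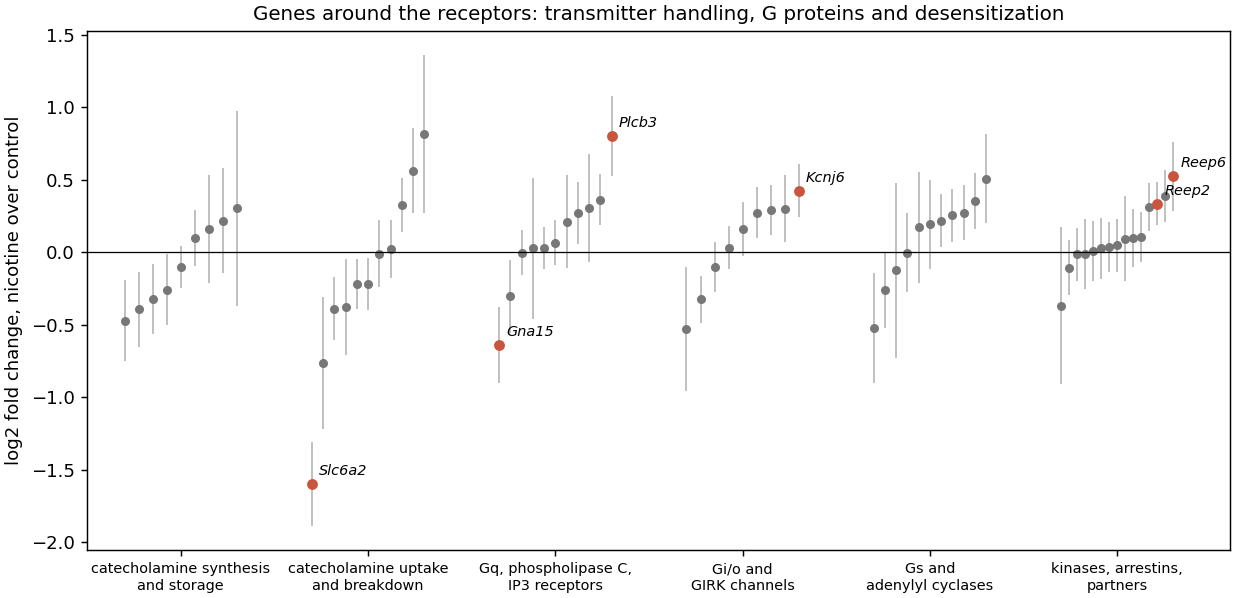
Log2 fold change of nicotine over control (vertical axis, with the standard error) for the 66 tested genes of 6 pathway lists, ordered by value within each list. Red points have an unadjusted p below 0.05 in edgeR, and Slc6a2 lies lowest, at -1.60.

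Slc6a2 encodes the transporter that takes noradrenaline back into nerve endings. It was measured at 0.912, 1.45 and 1.60 CPM after nicotine and at 3.36, 4.80 and 3.94 CPM in the controls, so every nicotine library was below every control. The log2 fold change was -1.60 (SE 0.29), with an adjusted p of 0.492 in edgeR and 0.000808 in DESeq2, and it ranged from -1.74 to -1.42 when 1 library was left out. The study drew attention to genes by this same contrast, so the value is not independent of earlier results. Per 1000 CPM of the fibroblast matrix genes, Slc6a2 stood at 2.15, 5.04 and 3.18 after nicotine and at 5.78, 6.09 and 6.03 in the controls, and unlike Adra2a its groups did not overlap on this scale. Against the macrophage and leukocyte, melanotroph and red blood cell sums its groups did overlap, as for Adra2a. The log2 differences there were -0.88, -1.12 and -0.42. Against every other marker list the groups of Slc6a2 did not overlap.

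Of 9 tested genes that make and store the transmitter, 4 were higher and 5 lower, with a median log2 fold change of -0.10, and none had an unadjusted p below 0.05. The log2 fold changes ran from -0.47 (SE 0.28) for Pts, which helps to make the cofactor of tyrosine hydroxylase, to 0.30 (SE 0.67) for Th, tyrosine hydroxylase itself, both named after their values were seen as the ends of the range. Cyb561, which supplies electrons to the vesicles, had a log2 fold change of 0.10 and Qdpr, which recycles the cofactor, one of -0.10. Dbh and Pnmt, the enzymes that make noradrenaline and adrenaline, had at most 11 counts in a library and were not tested. Of 11 tested genes of uptake and breakdown, 4 were higher and 7 lower, with a median of -0.22, and Akr1b1 and Aldh2, which process the aldehydes formed from the amines, had log2 fold changes of -0.22 and 0.32.

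Downstream of the alpha1 receptors, 8 of 11 genes of Gq, phospholipase C and the IP3 receptors were higher and 3 lower, with a median log2 fold change of 0.06. Plcb3, a phospholipase C, was at 5.58 ± 0.90 CPM after nicotine and 3.17 ± 0.95 CPM in the controls (SD, n = 3 each). Its log2 fold change was 0.80 (SE 0.28), with an adjusted p of 0.760 in edgeR. Gna15, a Gq family subunit found mainly in blood cells, was at 2.55 ± 0.65 and 3.98 ± 0.30 CPM (SD, n = 3 each). Its log2 fold change was -0.64 (SE 0.26), with an adjusted p of 0.806 in edgeR. The groups did not overlap for either gene. The general subunit Gnaq was at 113 CPM in both groups, and the IP3 receptor Itpr1 had a log2 fold change of 0.03.

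Downstream of the alpha2 receptors, 6 of 9 genes of Gi, Go and the GIRK potassium channels were higher and 3 lower, with a median log2 fold change of 0.16. The inhibitory subunit genes Gnai2 and Gnai3 had log2 fold changes of 0.27 and -0.10. Kcnj6, a GIRK channel subunit, had a log2 fold change of 0.43 (SE 0.18) with an adjusted p of 0.806 in edgeR. None of the 9 genes was called in either direction. The groups did not overlap for Gnai2, higher after nicotine, and for Gnai1, lower at -0.33 (SE 0.16) and named after the values were seen. That is beside 11.3% of all genes tested. The summed level of the 9 genes was 791 to 983 CPM after nicotine and 744 to 781 CPM in the controls, without overlap. Gnai2 supplied a mean of 432 and 358 CPM of it.

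Downstream of the beta receptors, 7 of 11 genes of Gs and the adenylyl cyclases were higher and 4 lower, with a median log2 fold change of 0.19 and no unadjusted p below 0.05. Gnas, the Gs subunit, was at 5154 ± 371 CPM after nicotine and 4509 ± 733 CPM in the controls (SD, n = 3 each), and Adcy6 had a log2 fold change of 0.27. Of 15 receptor kinases, arrestins and partner proteins, 11 were higher and 4 lower, with a median of 0.05. Reep2 and Reep6, of the family of receptor expression-enhancing proteins, had log2 fold changes of 0.34 (SE 0.15) and 0.52 (SE 0.24) with adjusted p-values of 0.807 in edgeR. Grk2, the kinase that desensitizes adrenergic receptors, had a log2 fold change of -0.02, and Rgs2, which shortens Gq signals, one of -0.37 (SE 0.54).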

How the data were processed

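Libraries were made with a strand-specific kit and sequenced as paired-end reads of 100 bases. Per the labels and the study's methods, the authors aligned reads to rn7 with HISAT2 2.1.0 and counted them per gene symbol with featureCounts and the UCSC RefSeq annotation; strand setting, treatment of multiply mapped reads and whether reads or pairs were counted are not given in the sources used here. The deposited values are raw counts, 1 table per sample. The labels name pituitary, although their extraction text describes testis.

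Groups came from the sample labels. Counts were tested with edgeR 4.0.16 (R 4.3.3; TMM, filterByExpr, quasi-likelihood fit, Benjamini-Hochberg over all 17292 genes), with no covariate. Called genes had an adjusted p below 0.1 and a fold change above 1.5. Alternatives were DESeq2 1.42.0, limma 3.58.1, other scalings and filters, a replicate block and leaving out each library. Scripts were tested on simulated data. Log2 correlations used a prior count of 2; the mean log2 level of a marker list used CPM plus 0.1. With 3 against 3 libraries an exact permutation test cannot go below 0.1. Named were all 8 receptor genes and, of each pathway list, genes called or with an unadjusted p below 0.05 and the 2 with the highest mean CPM (not per length). Members and lists were chosen with earlier results of these data known. No p-value is printed for a member, and counts of members passing a threshold describe the selection only. Gene coordinates are not given because the reference tables are of another build.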

Additional observations from a re-analysis of the deposited data

How the results depend on the processing

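The number of genes called was 0 in edgeR with all libraries, 61 with DESeq2 (18 higher and 43 lower, 1154 at an unadjusted p below 0.05 beside 1062 in edgeR), 1 with library sizes alone, 2 with no filter, 1 with counts thinned to the smallest library and 1 with limma voom and sample quality weights. It ranged from 0 to 9 when 1 library was left out, with 9 without nicotine replicate 3, 4 without control replicate 2 and 1 without nicotine replicate 2. Of the pathway genes, DESeq2 called 1, Slc6a2. With the replicate number as a block, edgeR called 2 genes and no pathway gene, so the block changed no call of a pathway gene. After each group's mean was subtracted, same-numbered libraries correlated at 0.03, -0.20 and -0.08 and differently numbered ones between -0.16 and 0.20. With 3 libraries per group, such correlations cannot show whether the numbers pair the samples. Small differences changed sign: Cyb561 was -0.021 with voom; Gnaq was 0.0027 with DESeq2, 0.045 with library sizes alone, 0.0094 with no filter, 0.00095 with the replicate block and 0.0025 after thinning; Grk2 was 0.034 with library sizes alone. With 1 library left out, log2 fold changes ranged from -0.14 to 0.22 for Cyb561, -0.072 to 0.10 for Gnaq, -0.023 to 0.10 for Itpr1, -0.22 to 0.049 for Gnai3, -0.12 to 0.17 for Grk2 and -1.29 to 0.24 for Rgs2. The cause was not tested. The order of receptor levels per gene length was not run, since no table of gene lengths of the files' build was used here. Counts below 20 in at least 1 library limit every receptor gene other than Adra1b and Adra2a.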
